A study of Mus musculus with 8 samples.

Results

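This section describes the Foxk1 binding peaks of mouse chromosome 12. Members were selected on column 1 of the deposited peak list, and 725 of its 28933 peaks (2.51%) lay on that chromosome. The chromosome itself was chosen by a measured value, its low number of peaks per Mb. Its density, its empty stretches and its signal values are therefore given as a description, with no test. Chromatin came from mouse embryonic fibroblasts (MEFs), connective-tissue cells cultured from embryos, grown in DMEM without treatment. The labels used here give no strain, genotype, passage or age. Foxk1 antibody was used for 3 libraries, control IgG for 3, and 2 were input, chromatin kept without antibody. The list is a single comparison of Foxk1 with input on the mm9 assembly, with a signal value and a q-value for each peak and no value per library. No replicate spread could be computed, read depth is unknown, and enrichment that IgG would also give cannot be told apart from Foxk1 binding.

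Foxk1 is a transcription factor of the forkhead family, which contacts DNA through a winged-helix domain. It also carries a forkhead-associated domain, a module that recognises phosphorylated partners, and it is known as a regulator of autophagy genes and of glycolysis. Chromosome 12, like the other mouse autosomes, has its centromere at the low-coordinate end. Its distal end holds the immunoglobulin heavy-chain locus, a long array of variable gene segments that B lymphocytes rearrange and that fibroblasts keep in germline form. Genes are not named for single peaks, because the gene table used here is on another assembly and coordinates were not carried over. No DNA sequence is shown for the same reason.

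Chromosome 12 held the peak with the highest signal value of the whole list, lying from 32635236 to 32635695, at 391. The next peak of the list, on another chromosome, had 319, so that the first exceeded it 1.23-fold. On chromosome 12 itself the second peak, from 45310946 to 45311405, had a signal value of 218, and the first exceeded it 1.79-fold. The signal value is the authors' own number for a peak, on a scale that is not stated. These 2 peaks stood apart from the rest of the chromosome, where no other signal value exceeded 136.

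The third peak, from 85792038 to 85792497, reached 136 and ranked 169 in the list. The fourth, from 70519962 to 70520421, had 120.2, and the fifth, from 114261258 to 114261717, had 117. With these, 5 of the 725 peaks (0.690%) reached 100, beside 1.47% of the whole list. Ranks 6 to 10 on the chromosome had signal values between 81.4 and 90.1, and ranks 11 to 20 between 64.1 and 76.8. Of the 20 strongest peaks, 11 lay between 66018806 and 93013237, a part that held 36.7% of all peaks of the chromosome. At a limit of 50 this part was not richer in strong peaks. There 5.64% of its peaks reached 50, near the 5.38% of all 725 and below the 7.97% of the whole list.

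**Figure D1:**
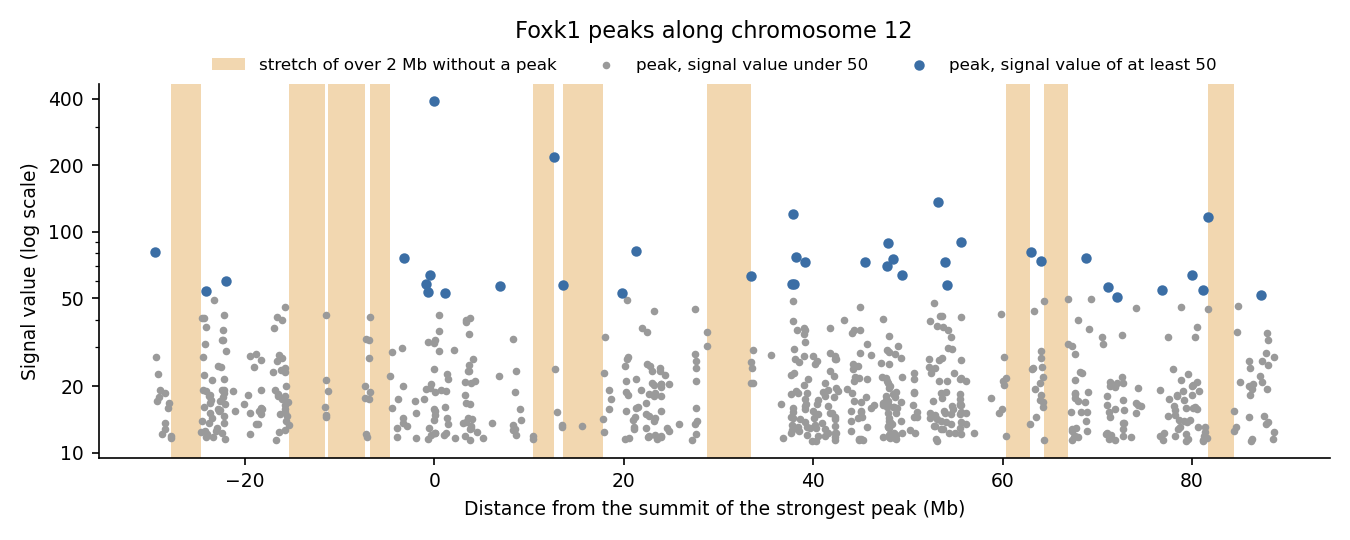
Each point is a peak of chromosome 12, with its distance from the summit of the strongest peak in Mb on the x axis and its signal value on a logarithmic y axis. Blue points have a signal value of at least 50, and shaded bands are the 11 stretches of over 2 Mb without a peak; the peaks at 391 and 218 stand above the rest.

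As the highest of the list, the strongest peak could only have neighbours of lower signal. Within 200 kb of its summit lay 10 other peaks, with signal values between 12.3 and 32.3, beside a median of 17.8 over the list. The closest, from 32634187 to 32634646, had a summit 1049 bp away and a signal value of 15.8. On the other side the next summit was 19.5 kb away, with a signal value of 14.1. A group of 4 peaks at 64.8 to 68.0 kb on that side had signal values of 15.5, 12.3, 14.7 and 32.3.

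The second peak was placed quite differently. No summit was found for 2.26 Mb on its centromeric side, and the next one on the distal side, with a signal value of 24.0, was 58.9 kb away. It opened an island of 6 peaks between 45311176 and 46181996. The last peak of that island, from 46181766 to 46182225, had a signal value of 57.5, and the 4 between them had 24.0, 15.3, 13.1 and 13.4. Both ends of the island were thus its strongest members, and both bordered an empty stretch. Islands of 6 peaks were singled out after their values were seen.

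The third, the fourth and the fifth peak also lacked another summit within 10 kb. The fourth had the fullest surroundings of these, with 6 other peaks within 100 kb, among them one of 58.4 at 39.3 kb and one of 48.4 at 32.1 kb. The fifth had 2 such neighbours, with 11.7 at 11.1 kb and 44.8 at 83.3 kb. The second of them was the last peak before the most distal empty stretch. Of the 20 strongest peaks, 12 (60.0%) had no other summit within 10 kb, beside 441 of all 725 peaks (60.8%). Within 100 kb, 2 of the 20 had none. No share over all peaks is given at that distance, so unusual isolation is not read from these 2. One of these, from 78063145 to 78063604, had a signal value of 72.9, and its neighbours were 124745 and 123814 bp away. The other was the first peak of the chromosome.

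**Figure D2:**
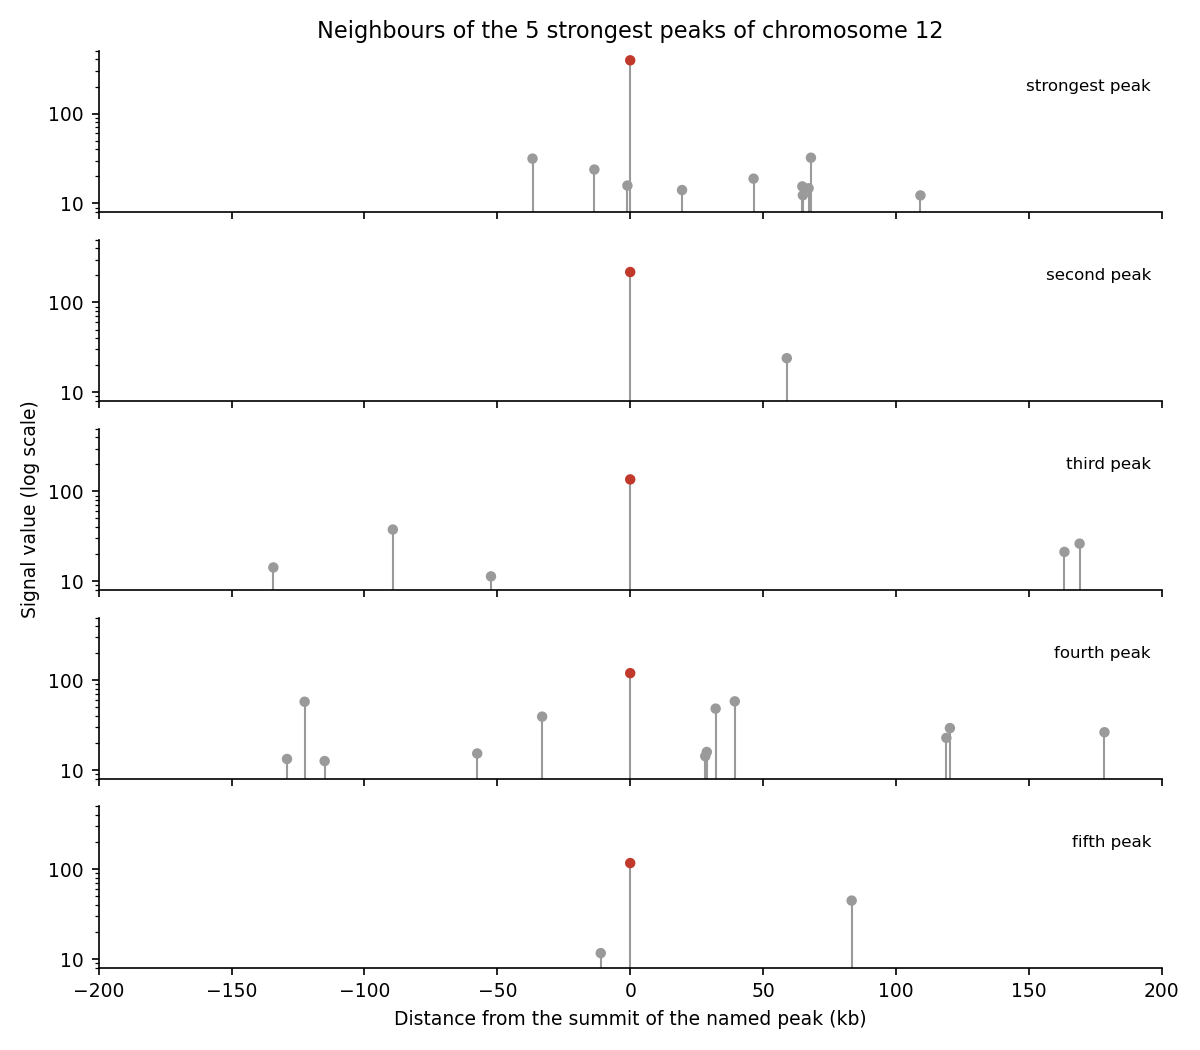
For the 5 strongest peaks of chromosome 12, each panel shows all peaks within 200 kb by their distance from the named summit in kb (x axis) and their signal value (y axis, log scale), with the named peak in red. The strongest peak has 10 neighbours of at most 32.3, whereas the second has 1 within this range.

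The first peak of the chromosome, from 3109809 to 3110268, reached 81.4, the tenth highest there. Its nearest neighbour was 125346 bp away. On 8 of 20 chromosomes the first summit lay below 3.2 Mb, and on the 7 others of these its signal value was between 11.5 and 19.97. Over all 19 other chromosomes the highest value of a first peak was 51.9, on chromosome 9, and the median was 17.0. In the mm9 assembly the start of each chromosome is a placeholder for the unsequenced centromere, so this peak lies near the first sequenced bases. Without this peak the density of the chromosome was 5.97 peaks per Mb, against 5.98 with it.

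Chromosome 12 was the sparsest autosome in this list. It carried 5.98 peaks per Mb, its length taken as the highest peak end of 121 Mb. The 18 other autosomes lay between 6.19 (chromosome 7) and 21.9 (chromosome 19), and X had 3.42. In 1 Mb windows, 26 of 119 on chromosome 12 (21.8%) held no peak, against 26.0% on chromosome 7, 0 of 59 on chromosome 19 and 12.4% over 20 chromosomes. The fullest window of chromosome 12 held 32 peaks and the median window 5. The 29 windows with at least 10 peaks together held 442 peaks, or 61.0% of the chromosome's total. No such count is given for other chromosomes, and the density over all 20 was 10.98 peaks per Mb.

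Long stretches of the chromosome held no peak. Neighbouring summits over 2 Mb apart occurred 11 times and took up 31.9 Mb, or 27.0% of the 118 Mb between the first and the last summit. This share was 30.6% on chromosome 7, 45.4% on X, 0 on chromosomes 15 and 19 and 13.1% over 20 chromosomes together. Outside these stretches chromosome 12 had 8.41 peaks per Mb. That was still the lowest of the autosomes, where the others lay between 9.13 (chromosome 7) and 23.1 (chromosome 19), beside 6.50 on X and 12.99 over all. This second density was added after the data were seen. Leaving out empty stretches raises the density of any chromosome that has them, so the low density is not attributed to them. Sequence to which reads cannot be assigned was not measured, so stretches without such reads and stretches without detected binding cannot be told apart.

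**Figure D3:**
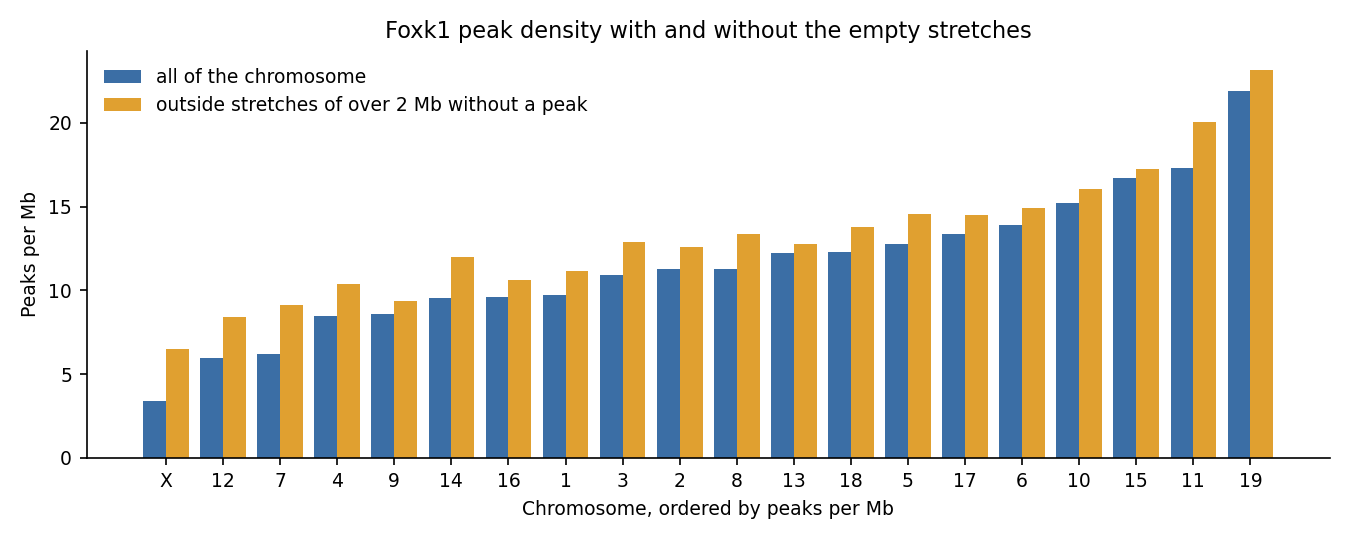
Bars give Foxk1 peaks per Mb on each of 20 chromosomes, ordered by the density over the whole chromosome (blue), beside the density outside stretches of over 2 Mb without a peak (orange). Chromosome 12 rises from 5.98 to 8.41 and keeps its place between X and chromosome 7.

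The longest empty stretch spanned 4.62 Mb, between summits at 61393830 and 66018806, and was the 11th longest of 104 such stretches in the list. Its borders were peaks with signal values of 30.4 and 63.2. Beyond it began the longest part without such a stretch. Toward the centromere, 3 further stretches exceeded 3 Mb. They ran from 4850813 to 7969396 (3.12 Mb), from 17257993 to 21142048 (3.88 Mb) and from 21380121 to 25278188 (3.90 Mb). The last pair enclosed an island of 6 peaks within 238 kb, whose signal values ran from 14.5 to 42.1.

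Another stretch in that region, of 2.11 Mb, lay between 25866409 and 27979382. Thus 4 of the 11 empty stretches fell within the first 28.0 Mb of the chromosome, and none of its peaks between 10596490 and 29436689 reached a signal value of 50. This was the longest interval between peaks of at least 50, at 18.8 Mb, and it held 72 weaker peaks. The median distance between neighbouring peaks of that strength was 1.46 Mb.

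Next, 3 stretches lay close together around 43 to 50 Mb. They ran from 43051198 to 45311176 (2.26 Mb), from 46181996 to 48218680 (2.04 Mb) and from 48218680 to 50490928 (2.27 Mb). The last pair shared a border, a lone peak from 48218450 to 48218909, whose signal value was 13.3 and whose q-value was 0.00304. This lone peak was the most isolated of the chromosome, and it was weak, ranking 573 of 725. The remaining stretches lay distally, from 93013237 to 95570686 (2.56 Mb), from 96997552 to 99488136 (2.49 Mb) and from 114344811 to 117033025 (2.69 Mb). In all, 8 of the 11 stretches began before the midpoint between the first and the last summit, and 63.8% of the empty length lay before it.

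Just inside the 2 Mb limit stood the stretch of 2.04 Mb. Just outside it stood one of 1.94 Mb between 107248351 and 109193237 and one of 1.87 Mb. The 21 peaks that bordered the 11 stretches had a median signal value of 17.7, against 17.8 for the 704 others, and ranged from 11.4 to 218. A signal value of 50 was reached by 3 of them (14.3%, at 218, 63.2 and 57.5) and by 36 of the others (5.11%). The share over the whole list was 7.97%, and 3 of 21 peaks are too few to compare with it.

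The most distal stretch, between 114344811 and 117033025, was bordered by a peak of 44.8 toward the centromere and one of 15.5 toward the telomere. Beyond it lay 4.22 Mb with 30 more peaks, up to the last summit at 121257375. In RefSeq on GRCm38.p6, the record of the immunoglobulin heavy-chain locus Igh is 2.75 Mb long and holds 183 Ighv segments and pseudogenes. The nearest protein-coding genes are Tmem121 on the centromeric side and Zfp386 and Vipr2 on the telomeric side, and 15 protein-coding genes follow it before the chromosome's end. The stretch of 2.69 Mb and the record of 2.75 Mb are thus of like length and both near the distal end. Whether they are the same region was not tested, since mm9 positions of the locus were not used here.

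Between the empty stretches the peaks fell into 12 segments, numbered here from the centromere. Segment 9, between 66018806 and 93013237, was the longest, with 266 peaks (36.7% of the chromosome's) over 27.0 Mb. It carried 9.85 peaks per Mb, beside 12.99 over all 20 chromosomes outside their empty stretches. It held 15 of the 39 peaks that reached 50, or 5.64% of its own peaks. That share was 5.38% for all 725 peaks and 7.97% for the whole list. Segment 11, between 99488136 and 114344811, followed with 114 peaks over 14.9 Mb, or 7.67 per Mb, and 7 strong ones (6.14%). These 2 segments together held 52.4% of the peaks.

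Long segments on the centromeric side differed in density. Segment 2, between 7969396 and 17257993, carried 94 peaks over 9.29 Mb, or 10.1 per Mb. Of these peaks 2 (2.13%) reached 50, beside 7.97% of the whole list. Segment 5, between 27979382 and 43051198, held the strongest peak of the list and had the lowest density of the segments over 1 Mb, with 91 peaks over 15.1 Mb (6.04 per Mb). It held 7 peaks of at least 50 (7.69%), near the share of the whole list. Segment 8, between 50490928 and 61393830, was nearly as sparse, with 6.79 peaks per Mb, and held 2 such peaks (2.70%). Segment 2 thus held more peaks than segment 5 in less length, and fewer strong ones, though these counts of strong peaks are small.

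Of the 8 segments over 1 Mb, the densest as a whole was a short one, number 10, between 95570686 and 96997552. It was closed off by empty stretches on both sides and carried 19 peaks over 1.43 Mb, or 13.3 per Mb. Its median signal value of 21.9 was the highest of the 12 segments. Medians of the others ran from 13.3, for the lone peak, to 20.3. Its strongest peaks lay from 95659836 to 95660295, at 81.5, and from 96727597 to 96728056, at 73.9.

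**Figure D4:**
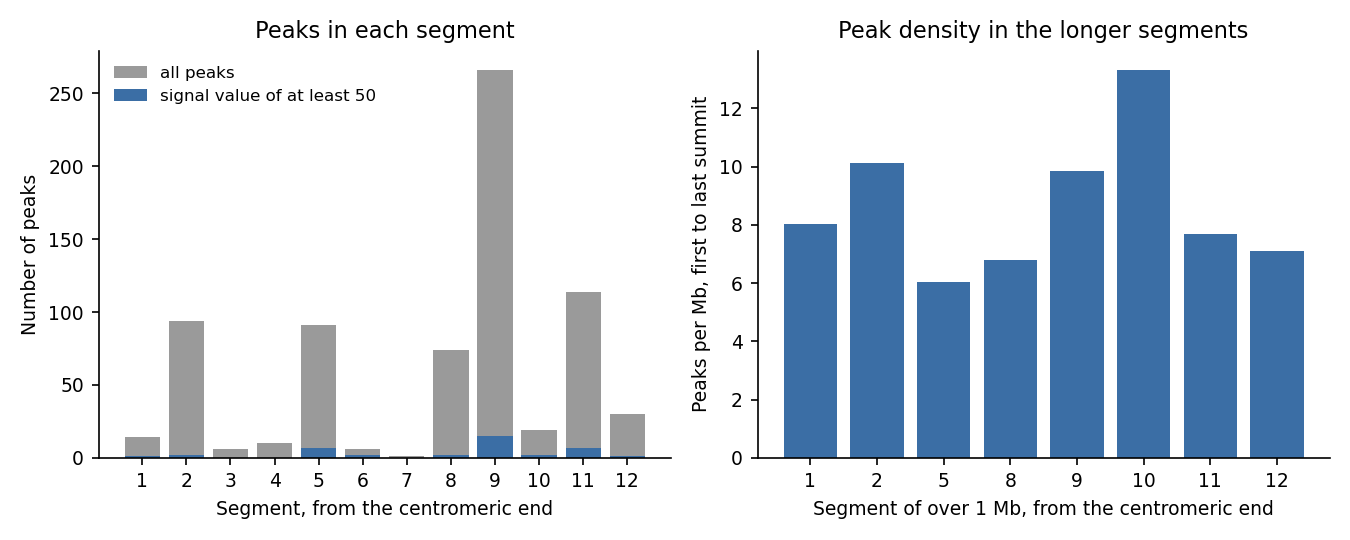
Left, number of peaks (grey) and of those that reach 50 (blue, within the grey bar) in the 12 segments that the empty stretches divide chromosome 12 into. Right, peaks per Mb in the 8 segments longer than 1 Mb, from 6.04 in segment 5 to 13.3 in segment 10.

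The fullest 1 Mb window of the chromosome ran from 80000001 to 81000000, inside segment 9, and held 32 peaks. In the whole list 108 windows held more. The window after it, from 81000001 to 82000000, held 20, and the window from 70000001 to 71000000 held 22. Next came 4 windows with 19 peaks each. Those starting at 8000001 and 16000001 are named here only because ties went to the lower coordinate. The fullest window was not the one with the highest median. Median signal values were 16.6 in both windows between 80 and 82 Mb and 20.7 in the one at 70 Mb, where 4 peaks reached 50. The window at 16 Mb had none of at least 50.

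At a scale of 100 kb, the fullest windows held 8 peaks, a number exceeded by 197 windows of the list. One of them, from 88200001 to 88300000, held all its peaks within 15.0 kb, a chain of 8 in which no step between summits exceeded 4625 bp. Its centre was the sixth strongest peak of the chromosome, from 88235792 to 88236251, at 90.1. In order of position the 8 signal values were 21.9, 41.4, 26.2, 13.8, 90.1, 12.2, 15.3 and 16.5. The peak next to the highest on its centromeric side, at 13.8, was 501 bp away from it, and the one on the other side, at 12.2, was 1620 bp away. Distally of this chain no summit was found for 488529 bp.

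The other window with 8 peaks, from 56500001 to 56600000, was spread out and weak. Its summits spanned 84.5 kb, and its signal values ran from 11.8 to 24.2. Several windows held 7 peaks, and the one of lowest coordinate, from 71700001 to 71800000, is described here. Its 7 peaks spanned 78.6 kb and were of unequal strength. A peak from 71755541 to 71756000 had a signal value of 72.9, and its partner at 957 bp had 35.9. At the far end stood one of 31.6, and the remaining 4 lay between 13.8 and 17.5.

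Most peaks of chromosome 12 stood apart from each other. The median distance from summit to next summit was 45.5 kb, with 25th and 75th percentiles of 11.9 and 129.5 kb. The median was 37.4 kb on chromosome 7, 15.1 kb on chromosome 19 and 24.8 kb over all chromosomes. Another summit within 5 kb was found for 202 peaks (27.9%), beside 27.0% on chromosome 7, 49.1% on chromosome 19 and 39.6% over all. Within 10 kb another summit was found for 39.2% of peaks, the same share as on chromosome 7. It was 62.8% on chromosome 19 and 52.3% over all. When peaks with steps of at most 10 kb were chained, 441 (60.8%) stood alone, 86 chains were pairs and 31 had at least 3 members. Chains of at least 4 numbered 12, and the longest was the one of 8 around the sixth strongest peak. Chains of at least 5 numbered 4 here, 4 on chromosome 7 and 34 on chromosome 19. The longest chain of a chromosome ranged from 4 peaks on X to 16 on chromosome 11.

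Close neighbours were also counted by strength. Of the 39 peaks that reached 50, 9 (23.1%) had another summit within 5 kb, as did 193 of the 686 weaker ones (28.1%). Of the 39, 26 (66.7%) had no summit within 10 kb, beside 60.8% of all 725. With no neighbour within 500 kb there were 7 peaks. Their signal values lay between 11.6 and 27.8. None reached 50, beside 5.38% of all 725, but 7 peaks are too few to compare with that share. The highest of the 7 was from 68160260 to 68160719, with the nearest summit 1080433 bp away.

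Overlapping peaks, with summits less than the peak width of 460 bp apart, occurred as 12 pairs among the 725 peaks. Chromosome 7 had 19 such pairs among 944 peaks, and chromosome 19 had 50 among 1342. On X there were 12 among 569 peaks, and the highest count was 68 among 2075, on chromosome 6. No share over all chromosomes is given, so the 12 pairs are not read as few or many. Distances in the 12 pairs of chromosome 12 ran from 205 to 440 bp. Within a pair the higher signal value exceeded the lower by a median of 1.31-fold. The most unequal pair held the seventh strongest peak of the chromosome, from 80572861 to 80573320, where 89.1 stood beside 16.5 at 305 bp, a ratio of 5.41. The most equal pair, with 11.6 and 11.9 at 320 bp, formed the border of the empty stretch that begins at 43051198. The closest pair, at 205 bp, lay 65 kb from the strongest peak of the list.

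Signal values on chromosome 12 ran from 11.32, the lower end of the list, to 391. The median was 17.8, and the 25th and 75th percentiles were 13.8 and 24.8, against 13.5 and 27.6 for the whole list. A signal value under 20 was given to 441 peaks (60.8%), beside 58.2% of the list. At 50 or more were 39 of the 725 peaks (5.38%), beside 7.97% of the whole list. The lowest q-value of the list, 0.00014, was shared by 68 peaks (9.38%, beside 12.3% of the list), all with signal values of at least 40.5.

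Compared at the same limits, the share of peaks at 50 or more was 6.67% on chromosome 7 and 10.1% on chromosome 19. The lowest share of the 20 chromosomes was 3.87%, on X, and chromosome 12 came next. Chromosome 12 held 2.51% of all peaks of the list, 1.69% of the 2305 at 50 or more and 1.17% of the 426 at 100 or more. At 200 or more it held 2 of 58 (3.45%), those at 391 and 218. The upper end of its signal values was therefore thin, with few peaks between 100 and 200, below a pair of very high ones. No test of these differences was made, since single peaks are not replicates and the chromosome was chosen by its density.

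**Figure D5:**
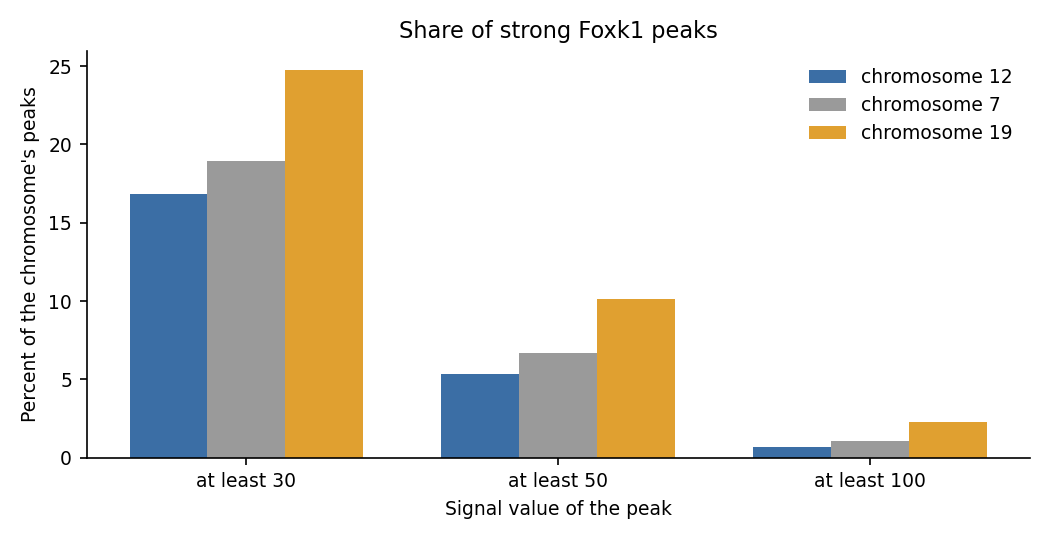
Bars give the percent of each chromosome's peaks that reach a signal value of 30, 50 or 100, for chromosome 12 (blue), chromosome 7 (grey) and chromosome 19 (orange). At each of the 3 limits chromosome 12 has the lowest bar, with 16.8%, 5.38% and 0.690%.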

How the data were processed

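Libraries were grouped by antibody, and input by title. Per the submitters' processing notes, the authors aligned reads to mm9 with Bowtie. Which version was used, which program called peaks, with what settings, and whether libraries were pooled was not stated in what was used here. Values the authors deposited were a list of peaks with a score (the signal value, of unstated scale) and a q-value on a linear scale, all under 0.01. Coordinates are given 1-based on mm9. Peaks of chromosome 12 were counted, and distances were taken between neighbouring summits. Density was peaks divided by the highest peak end. Windows ran from that of the first summit to that of the last. Named peaks were the 20 of highest signal value, those bordering the empty stretches, a lone peak between them, and the peaks or counts of the fullest windows (ties went to the lower coordinate). Members and lists were chosen with earlier results of these data known. A gene table on GRCm38.p6 was used for gene names, gene order and a gene's length only. Planned shares of peaks near gene starts and of peaks with a forkhead motif were not run, as an mm9 genome and annotation were not used here. The procedures for stretches, neighbours, joining and windows were tested on simulated positions. Computation used Python 3.11.15, numpy 2.4.6, scipy 1.17.1, pandas 2.3.3 and matplotlib 3.10.9.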

Additional observations from a re-analysis of the deposited data

How the results depend on the processing

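Density was 2.99 peaks per Mb for the stronger 362 peaks, split at the list's median signal value, and 3.05 for the 370 whose q-value did not exceed 0.001. It was 5.40 with summits within 2000 bp joined into 655 regions, 6.14 with the length from first to last summit, and 8.41 outside the empty stretches. The number of empty stretches stayed at 11 between peak edges, was 16 with either part of the peaks, and was 24 at a limit of 1 Mb and 4 at 3 Mb. The share of strong peaks was 16.8% at a limit of 30, 0.690% at 100, and 5.95% after joining. Median spacing was 92.1 kb for the 362 stronger peaks and 55.3 kb after joining. Another summit lay within 2 kb for 18.1% and within 10 kb for 39.2% of peaks. Windows of 500 kb were empty in 36.7% and windows of 2 Mb in 6.67% of cases. Each of these moves follows from the altered limit, size or number of peaks. The density outside the empty stretches and the one without the first peak were chosen after seeing the data. No paired analysis was possible because the list holds no value per replicate, and no replicate could be left out. Depth is unknown, so an empty stretch is one where no peak passed the authors' threshold.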
